A study of Mus musculus with 8 samples.

Results

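The potassium channel subunit genes of the mouse were followed in the aorta of ageing Marfan mice. The members are every gene symbol of the count tables that begins with Kcn, goes on with 1 to 3 letters and ends in digits, 92 of the 25526 symbols listed. A member was taken as detected where it reached at least 1 CPM (its count divided by the library size, after TMM scaling, and put on a common base) in 4 or more of the 8 libraries. Of the 92 members 39 were detected, 29 of them at 1 CPM in all 8 libraries and 10 in 4 to 7 libraries, and 53 were not detected.

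The libraries came from bulk RNA of aortic tissue of male mice, 4 aged 2 years and 4 aged 12 weeks, and the series set growth-arrested aneurysms of the older animals against growing aneurysms of the younger. All 8 mice were heterozygous for Fbn1 C1041G, written Fbn1C1041G/+, a missense change in fibrillin-1 that serves as a model of Marfan syndrome. No mice with both alleles intact were among the samples, so age and the course of the disease cannot be told apart. The labels call the tissue aorta, and the title speaks of thoracic aneurysms; the sources used here do not say whether both ages were collected and sequenced together.

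Potassium channels let potassium ions leave a cell along their gradient, which draws the membrane potential towards negative values. In arterial smooth muscle this closes voltage-gated calcium channels and favours relaxation, and potassium channels of the endothelium, of leukocytes and of heart muscle set the potential of those cells in the same way. The family holds pore-forming subunits gated by calcium, voltage, inward rectification or background leak, silent subunits that work only beside other pores, and accessory subunits that alter gating, trafficking or turnover.

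Total counts ran from 16251986, in 2 years replicate 3, to 33880690, in 2 years replicate 1. The 7 smooth muscle markers, checked against the label of aorta, had counts in every library, with a summed level of 15650 to 24460 CPM at 2 years and 27230 to 32640 CPM at 12 weeks. Over all genes, 52.0% of the 13978 tested were called changed by edgeR's quasi-likelihood test at a Benjamini-Hochberg adjusted p below 0.05, 25.8% higher and 26.2% lower at 2 years. The levels of 49.6% of the tested genes did not overlap between the ages. 12 weeks replicate 3 stood apart in heart muscle markers, which summed to 1171 CPM there and to 88.6 to 293.7 CPM in the other 7 libraries, and values without it stand beside the members it moved by over 1.5-fold or whose call it changed. Libraries differed by age in how counts depended on transcript length: the slope of log2 CPM on log2 length lay between -0.311 and -0.106 at 2 years and between 0.124 and 0.260 at 12 weeks. An offset that removes this trend, and that on GC share, was fitted as an alternative, called the length-GC correction here, and its value stands beside each detected member that it moved by over 1.5-fold or whose call it changed. Detected members had transcripts with a median of 3922 nt, against 3174 nt for the genes tested.

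Promoter windows of 3 members are printed because the results on smooth muscle channels turn on the calcium-activated BK channel, whose pore subunit Kcnma1 and accessory subunit Kcnmb1 both fell, and because Kcnn4, the intermediate-conductance calcium-activated channel, rose. Each window runs from 250 bases before to 50 bases after the gene's start, read 5′ to 3′ on the gene's strand from RefSeq on build GRCm38.p6. Such an entry was found for 67 of the 92 members and for 29 of the 39 detected. The windows lie at chr14:24004156-24004455 on the minus strand (Kcnma1), chr11:33962763-33963062 on the plus strand (Kcnmb1) and chr7:24370013-24370312 on the plus strand (Kcnn4). Capitals mark GGGCGG on either strand, where matches may overlap.
Kcnma1: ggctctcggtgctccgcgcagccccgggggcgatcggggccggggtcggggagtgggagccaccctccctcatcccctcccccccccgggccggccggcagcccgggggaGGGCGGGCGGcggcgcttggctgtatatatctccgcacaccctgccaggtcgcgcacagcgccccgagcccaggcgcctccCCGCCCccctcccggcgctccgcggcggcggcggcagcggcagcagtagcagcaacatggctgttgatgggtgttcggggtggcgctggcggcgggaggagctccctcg
Kcnmb1: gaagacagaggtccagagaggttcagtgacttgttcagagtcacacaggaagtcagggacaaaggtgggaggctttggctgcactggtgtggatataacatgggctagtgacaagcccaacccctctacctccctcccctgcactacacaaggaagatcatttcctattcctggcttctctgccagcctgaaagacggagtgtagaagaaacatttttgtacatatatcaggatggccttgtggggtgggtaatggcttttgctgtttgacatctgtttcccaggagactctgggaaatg
Kcnn4: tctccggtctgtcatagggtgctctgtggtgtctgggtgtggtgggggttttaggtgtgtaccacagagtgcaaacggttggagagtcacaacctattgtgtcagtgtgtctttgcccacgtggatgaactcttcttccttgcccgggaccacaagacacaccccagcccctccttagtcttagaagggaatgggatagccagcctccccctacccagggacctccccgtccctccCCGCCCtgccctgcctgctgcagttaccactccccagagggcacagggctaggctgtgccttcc

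The 2 BK windows differ in composition. That of Kcnma1 has a GC share of 78.0%, 36 CpG dinucleotides and 3 matches to GGGCGG, while that of Kcnmb1 has a GC share of 49.7%, 1 CpG and 0 matches. The Kcnn4 window has a GC share of 59.7%, 6 CpG and 1 match. Over all 32851 windows of this length the median was 7 CpG and 35.7% held GGGCGG on either strand, as did those of 13 of the 29 detected members with an entry. TATAAA on either strand was in none of the 3 windows, in those of 2 of the 29 (Kcnab1 and Kcnj15) and in 13.6% of all. The CArG box, the sequence bound by serum response factor, was in the windows of 0 of the 29 members and in 1.63% of all, which says only that these letters are not in these windows.

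Channel transcripts made up a smaller part of the 2-year libraries. Summed over the 92 members the level was 852, 777, 694 and 771 CPM in 2 years replicates 1 to 4, against 1164, 1296, 1269 and 1304 CPM in 12 weeks replicates 1 to 4. The highest 2-year library was below the lowest 12-week library. Kcnmb1 and Kcnab1 had the most counts at each age. Kcnmb1 took 24.5% to 34.2% of the family's counts at 2 years and 24.9% to 31.5% at 12 weeks, and Kcnab1 8.15% to 13.8% at 2 years and 13.04% to 19.2% at 12 weeks. Kcnmb1, Kcnab1, Kcnh2 and Kcnma1 together took 41.1% to 56.2% at 2 years and 57.0% to 64.7% at 12 weeks. The summed level thus rests in large part on 4 genes, and the length-GC correction was not applied to it. In bulk tissue, fewer cells of a type and less RNA per cell cannot be told apart.

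Of the 92 members 48 passed edgeR's expression filter and were tested, with a median log2 fold change (2 years over 12 weeks) of -0.24, against -0.01 over all genes tested. Of these 48, 8 rose and 13 fell, and 27 did not pass the threshold. The share called was 43.8%, below the 52.0% over all genes, and no excess of changed members is read from it. Under the length-GC correction the median was -0.03 for these 48 members and -0.06 for all genes, and 11 members rose and 12 fell. Over the 48 the lean towards lower values was therefore not kept. Groups did not overlap for 8 members that were higher and 11 that were lower at 2 years, against 24.3% and 25.3% of all genes tested. Among the detected members 6 rose and 13 fell, and among those at 1 CPM in all 8 libraries 4 rose and 11 fell. With the correction 8 detected members rose and 12 fell, with a median of -0.18. Of those at 1 CPM in all 8 libraries 6 rose and 11 fell with it, with a median of -0.09. In both sets falls stayed more frequent than rises, as they did over all genes with the correction, where 3177 rose and 3913 fell. No lean particular to the members is read from this. Kcnj11 alone reached 1 CPM in libraries of a single age, 12 weeks, and could enter only by being higher there. It is counted among the 13 detected members that fell and the 11 that were lower without overlap. Kcna3 and Kcnc1, 2 of the 8 that rose, passed the expression filter through the 2-year libraries alone and could enter only by being higher at that age. By role, 7 of 36 tested pore-forming members rose and 10 fell and 1 of 8 accessory members rose and 3 fell, while the 4 tested silent subunits did not pass. With the correction 10 pore-forming members rose and 8 fell, which turns their balance of directions round.

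**Figure D1:**
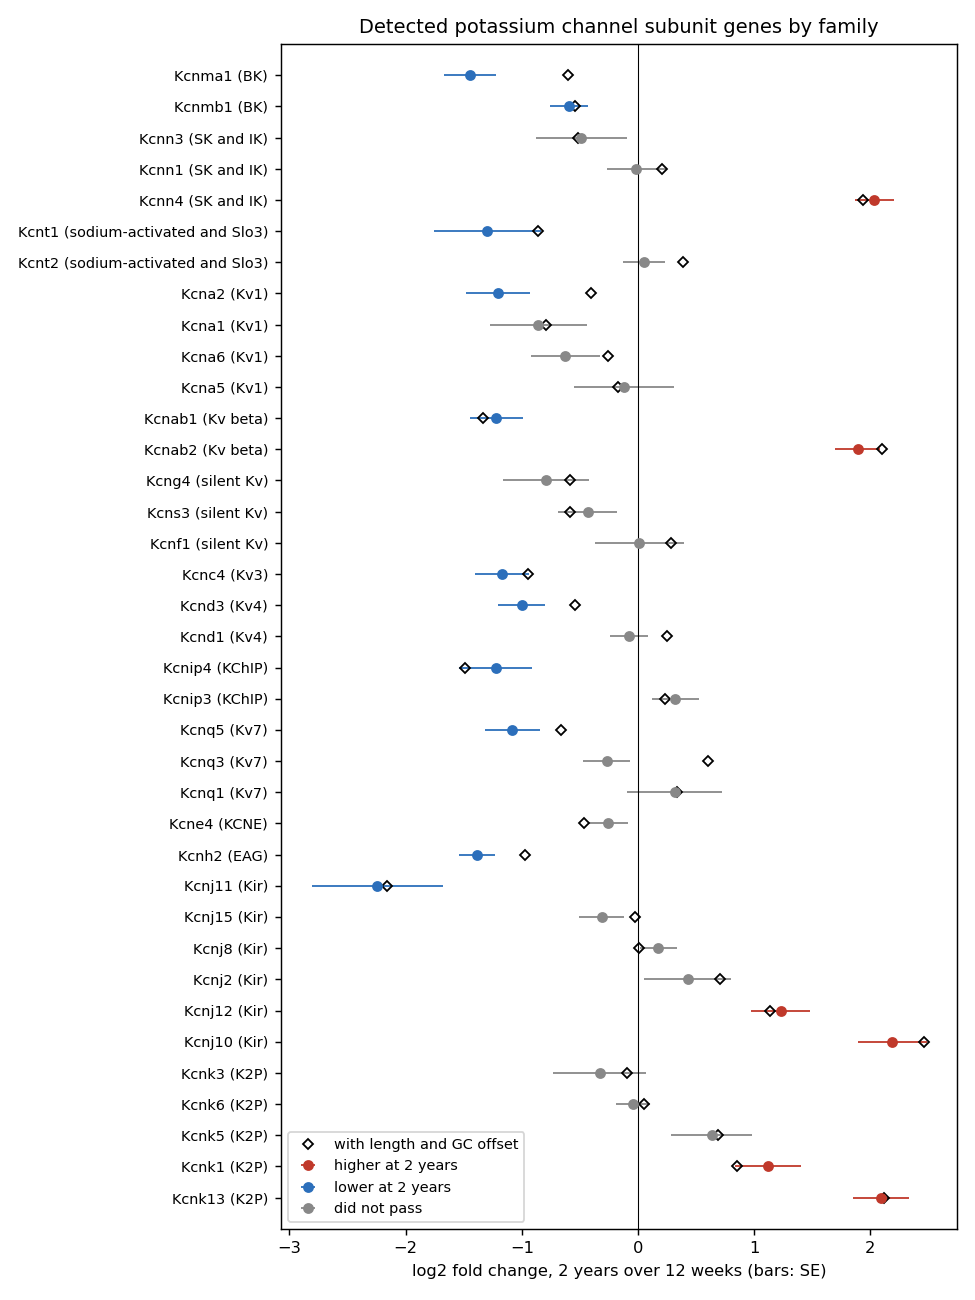
Log2 fold change (2 years over 12 weeks, x axis) of 37 detected members, listed down the page by family, with bars for the SE from edgeR; filled points are coloured by call and open diamonds give the value under the length-GC correction. The 11 blue points to the left include Kcnma1 at -1.45, Kcnh2 at -1.39 and Kcnab1 at -1.22, and the 6 red points to the right include Kcnj10 at 2.19 and Kcnn4 at 2.03.

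Levels can be ranked between genes per kilobase of the longest protein-coding transcript. On that scale Kcnmb1 stood highest, at 56.9 CPM per kb at 2 years and 85.9 at 12 weeks. Kcnab1 followed with 27.9 CPM per kb at 2 years and 65.1 at 12 weeks. Kcne4 had 18.4 CPM per kb at 2 years and 22.0 at 12 weeks. Kcnh2 had 10.7 CPM per kb at 2 years and 28.1 at 12 weeks, and Kcnj8 had 20.2 at 2 years and 17.9 at 12 weeks. At the low end, Kcng4 had 0.196 CPM per kb at 2 years and 0.335 at 12 weeks. The accessory subunits Kcnmb1 and Kcnab1 stood above the other detected members at both ages, followed by the pore Kcnj8 at 2 years and the pore Kcnh2 at 12 weeks.

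Both detected BK subunits fell. BK channels open on calcium and depolarisation and oppose contraction in arterial smooth muscle. Kcnma1, which forms the pore, had 39.7, 20.8, 19.96 and 32.5 CPM in 2 years replicates 1 to 4, against 60.4, 87.3, 79.3 and 82.1 CPM in 12 weeks replicates 1 to 4. The ages did not overlap, and the mean was 28.2 ± 9.55 CPM at 2 years and 77.3 ± 11.8 CPM at 12 weeks (SD, n = 4 each). This is 2.73-fold lower at 2 years, a log2 fold change of -1.45 (SE 0.22, adjusted p by edgeR = 0.000324). Its transcript is 12094 nt long, the longest among detected members, and the log2 fold change was -0.60 under the length-GC correction, still called.

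Kcnmb1 encodes the beta1 subunit, which raises the calcium sensitivity of BK channels in smooth muscle. Its levels were 276.4, 244.0, 169.8 and 263.8 CPM at 2 years, against 360.4, 408.7, 315.5 and 355.3 CPM at 12 weeks. Again the groups were apart, with means of 238.5 ± 47.7 CPM at 2 years and 360.0 ± 38.2 CPM at 12 weeks (SD, n = 4 each). The fall was 1.51-fold (log2 fold change -0.59, SE 0.17, adjusted p by edgeR = 0.0112), and -0.54 with the correction. The other beta subunits, Kcnmb2, Kcnmb3 and Kcnmb4, were not detected.

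The ratio of Kcnmb1 to Kcnma1 CPM was 6.96, 11.8, 8.51 and 8.12 in 2 years replicates 1 to 4, against 5.97, 4.68, 3.98 and 4.33 in 12 weeks replicates 1 to 4. All 2-year ratios were above all 12-week ratios. The mean log2 ratio, with 0.1 CPM added to both genes, differed by 0.88 between the ages (exact permutation test over 70 assignments, two-sided p = 0.0286, the smallest possible; 0.0571 after adjustment over the 2 ratios tested). It therefore did not pass after adjustment. Under the length-GC correction the difference was 0.09 (exact permutation p = 0.514, and 0.0286 to 0.514 over the alternatives), and the Kcnmb1 transcript has 4191 nt, against 12094 nt for Kcnma1.

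**Figure D2:**
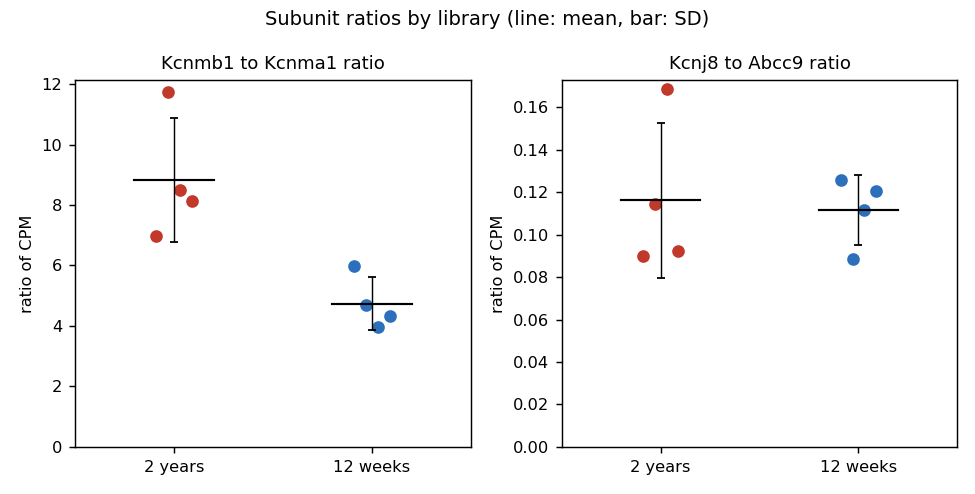
Ratio of CPM by library, with 2-year libraries in red and 12-week libraries in blue, the mean as a line and the SD as a bar (n = 4 each). Kcnmb1 to Kcnma1 lies between 6.96 and 11.8 at 2 years and between 3.98 and 5.97 at 12 weeks, and Kcnj8 to Abcc9 overlaps between the ages.

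Among the small- and intermediate-conductance calcium-activated channels, Kcnn4 rose. It carries the intermediate-conductance current of endothelium, T cells and macrophages, and is low in contractile smooth muscle. Kcnn4 had 11.8, 12.1, 10.3 and 14.3 CPM in the 2-year libraries, against 3.36, 2.62, 2.81 and 3.08 CPM in the 12-week libraries. Every 2-year value was over every 12-week value, and the increase was 4.09-fold (log2 fold change 2.03, SE 0.17, adjusted p by edgeR = 4.69e-06). Kcnn3, a small-conductance channel of endothelium, had 1.31, 1.37, 0.520 and 0.868 CPM at 2 years, against 0.786, 1.73, 1.41 and 1.87 CPM at 12 weeks. Its groups overlapped and it did not pass (log2 fold change -0.49, SE 0.39, adjusted p = 0.314). Kcnn1 averaged 3.07 ± 0.750 CPM at 2 years and 3.09 ± 0.502 CPM at 12 weeks (SD, n = 4 each; log2 fold change -0.02, adjusted p = 0.962), and Kcnn2 was not detected.

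Kcnt1 and Kcnt2 form channels opened by intracellular sodium. Kcnt1 had 0.999, 1.15, 0.585 and 1.98 CPM at 2 years, against 5.42, 2.66, 2.37 and 1.38 CPM at 12 weeks. The highest 2-year value was above the lowest 12-week value, and 12 weeks replicate 1 was the highest of all. It was called lower (log2 fold change -1.30, SE 0.46, adjusted p by edgeR = 0.0334), but only 8 of 18 alternatives called it, with adjusted p from 0.0142 to 0.188. Without 12 weeks replicate 1 it was at -0.84 and not called, nor was it called without 2 years replicate 1 (-1.21), 2 (-1.30) or 3 (-1.10) or 12 weeks replicate 2 (-1.35), and under the length-GC correction it was at -0.86 and not called. Kcnt2 averaged 12.2 ± 1.88 CPM at 2 years and 11.8 ± 2.45 CPM at 12 weeks (SD, n = 4 each) and did not pass (0.05, adjusted p = 0.832). With the correction Kcnt2 was called higher at 0.39.

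Voltage-gated pores form the largest branch, and Kcna2, Kcnc4, Kcnd3, Kcnq5 and Kcnh2 fell. Kv1 pores open on depolarisation and are partly active at the resting potential of arterial smooth muscle. Of its 8 members Kcna1, Kcna2, Kcna5 and Kcna6 were detected. Kcna2 had 6.99, 4.48, 9.88 and 9.48 CPM at 2 years, against 11.7, 15.1, 22.4 and 21.6 CPM at 12 weeks. All 2-year values lay below the lowest 12-week value, and the fall was 2.31-fold (log2 fold change -1.21, SE 0.27, adjusted p by edgeR = 0.00356). Its transcript measures 11582 nt, and under the length-GC correction Kcna2 was at -0.41 and not called (adjusted p = 0.138, and 0.000129 to 0.138 over the alternatives). With this correction and a replicate block together it was at -0.39 and called, although replicate numbers do not link the ages.

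Kcna5, the Kv1 pore most studied in arterial muscle, was low. It had 1.31, 1.41, 0.520 and 1.15 CPM at 2 years, against 0.568, 0.886, 1.66 and 1.70 CPM at 12 weeks, with overlap (log2 fold change -0.12, SE 0.43, adjusted p by edgeR = 0.833). Kcna1 averaged 1.05 ± 0.447 CPM at 2 years and 1.95 ± 0.905 CPM at 12 weeks, with a log2 fold change of -0.86 (adjusted p = 0.105). Kcna6 averaged 1.96 ± 0.349 CPM at 2 years and 3.01 ± 1.00 CPM at 12 weeks (log2 fold change -0.62, adjusted p = 0.0953), and was called lower, at -0.79, without 12 weeks replicate 1. SDs are over n = 4 at each age.

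The cytoplasmic beta subunits that bind Kv1 pores went opposite ways. Kcnab1, which speeds inactivation of Kv1 channels, had 117.5, 105.4, 56.6 and 83.3 CPM at 2 years, against 151.8, 248.8, 216.4 and 228.6 CPM at 12 weeks. No 2-year library reached the lowest 12-week library, and the fall was 2.33-fold (log2 fold change -1.22, SE 0.23, adjusted p by edgeR = 0.00105). Kcnab2, which is also expressed in leukocytes and neurons, had 11.6, 13.7, 15.2 and 20.5 CPM at 2 years, against 4.37, 4.51, 4.00 and 3.53 CPM at 12 weeks. It was higher in every 2-year library, by 3.71-fold (log2 fold change 1.89, SE 0.19, adjusted p = 2.19e-05). Per kilobase Kcnab1 remained above Kcnab2 at both ages, at 27.9 against 3.88 CPM per kb at 2 years and 65.1 against 1.05 at 12 weeks. Kcnab3 was not detected.

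The detected silent subunits, which join Kv2 pores and form no channel alone, did not pass. Kcns3 averaged 3.85 ± 0.837 CPM at 2 years and 5.18 ± 1.36 CPM at 12 weeks (log2 fold change -0.43, adjusted p = 0.168), or -0.61 and called without 12 weeks replicate 1. Kcnf1 averaged 3.496 ± 1.499 CPM at 2 years and 3.52 ± 1.46 CPM at 12 weeks (0.01, adjusted p = 0.982). Kcng4 averaged 0.746 ± 0.266 CPM at 2 years and 1.27 ± 0.332 CPM at 12 weeks (-0.79, adjusted p = 0.0952). SDs are over n = 4 at each age. Kcng2 was tested but not detected, and did not pass (-0.17, adjusted p by edgeR = 0.879). Its highest library was 12 weeks replicate 3 at 1.74 CPM, and without that library Kcng2 was at 1.78 and called higher (adjusted p = 0.0432, and 0.0432 to 0.989 over the alternatives). The other 12-week libraries held 0.0385 to 0.262 CPM. In that fit Kcng2 therefore passed the expression filter through 2-year libraries alone and could enter only by being higher there. That call is read as a description only.

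The fast-activating Kv3 and Kv4 groups each had a member that fell. Kcnc4 of the Kv3 group had 4.77, 5.37, 5.20 and 6.56 CPM at 2 years, against 8.04, 10.01, 14.3 and 16.9 CPM at 12 weeks (2.25-fold lower, log2 fold change -1.17, SE 0.23, adjusted p by edgeR = 0.00161). Its 12-week libraries spread over a wider range, and still none met the 2-year values. Kcnd3, a pore of the transient outward current, had 39.7, 27.2, 21.4 and 33.3 CPM at 2 years, against 44.1, 64.9, 67.1 and 68.0 CPM at 12 weeks. The fall was 2.00-fold (log2 fold change -1.002, SE 0.20, adjusted p = 0.00172), and 12 weeks replicate 1 was the low library of its group. With the correction it was at -0.54 and called, and with the correction and a replicate block at -0.56 and not called (adjusted p = 0.0528, and 2.3e-05 to 0.0528 over the alternatives). Kcnd1, another Kv4 pore, averaged 5.70 ± 0.463 CPM at 2 years and 6.01 ± 0.615 CPM at 12 weeks (SD, n = 4 each; -0.08, adjusted p = 0.709), and with the correction it was at 0.25 and not called. Kcnd2, tested but not detected, was at 0.96 and did not pass (adjusted p by edgeR = 0.072), and was called higher at 1.18 with the correction.

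KChIP proteins are calcium-binding partners of Kv4 pores. Kcnip4 had 4.08, 3.45, 1.82 and 3.61 CPM at 2 years, against 3.89, 9.40, 8.25 and 9.17 CPM at 12 weeks. Here the groups overlapped, because 12 weeks replicate 1 was below 2 years replicate 1, and the gene was called lower (2.34-fold, log2 fold change -1.23, SE 0.31, adjusted p by edgeR = 0.00659). An antisense gene that overlaps Kcnip4, 5730480H06Rik, is also counted in these libraries, and strand handling is not given in the sources used here. Kcnip3, which also acts as a calcium-regulated transcriptional repressor, averaged 8.84 ± 2.63 CPM at 2 years and 7.03 ± 0.562 CPM at 12 weeks (SD, n = 4 each; 0.32, adjusted p = 0.203).

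Kv7 pores carry a slowly activating, non-inactivating current that holds arterial smooth muscle relaxed. Kcnq5, a Kv7 pore found in arteries, had 7.70, 6.40, 3.77 and 8.51 CPM at 2 years, against 11.7, 16.4, 12.2 and 16.02 CPM at 12 weeks. It fell 2.12-fold without overlap (log2 fold change -1.08, SE 0.23, adjusted p = 0.00267).

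Kcnq1 and Kcnq3 did not pass. Kcnq1 had 0.913, 1.19, 2.15 and 1.60 CPM at 2 years, against 0.830, 0.693, 1.96 and 1.14 CPM at 12 weeks (log2 fold change 0.32, SE 0.41, adjusted p by edgeR = 0.540). Its transcript is overlapped by the antisense Kcnq1ot1, so its counts are uncertain. Kcnq3 averaged 6.22 ± 1.18 CPM at 2 years and 7.504 ± 1.48 CPM at 12 weeks (SD, n = 4 each; -0.27, adjusted p = 0.283). Under the length-GC correction Kcnq3, with 11824 nt, was at 0.60 and called higher (adjusted p = 0.037, and 0.037 to 0.687 over the alternatives). Kcne4, a single-span accessory subunit that associates with Kv7 channels in rat arteries, had 53.8, 44.2, 61.8 and 36.1 CPM at 2 years, against 67.6, 52.2, 57.15 and 56.9 CPM at 12 weeks. The groups overlapped and Kcne4 did not pass (-0.26, SE 0.17, adjusted p = 0.218). With the correction it was called lower at -0.46. Kcne1, Kcne2 and Kcne3 were not detected, and Kcne1 had 0 counts in all 8 libraries. Kcne3 was tested and did not pass, at 0.72 and, with the correction, 0.09.

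Kcnh2, the pore of the rapid delayed rectifier known best from the heart, was the only EAG member detected of 8. It had 45.1, 52.6, 38.8 and 44.7 CPM at 2 years, against 142.9, 93.9, 112.0 and 126.0 CPM at 12 weeks. Every 12-week library was above every 2-year library, and the fall was 2.62-fold (log2 fold change -1.39, SE 0.15, adjusted p by edgeR = 3.77e-05), or -0.97 with the correction. Of 7 tested heart muscle markers 4 fell (Myh6, Tnni3, Actn2 and Ryr2), and Actc1, Tnnt2 and Myl7 did not pass, Tnnt2 at 0.55. This is 57.1% called, against 52.0% of all genes. Without 12 weeks replicate 3 Myh6 was at -2.09 and not called, while Tnni3, Actn2 and Ryr2 stayed called lower. Of 17 alternatives 4 called Myh6, 8 called Tnni3 and 12 called Actn2, and Ryr2 was called in 18 of 18. Ryr2, the calcium release channel, was at -2.72 without overlap between the ages, with 144.7 to 182.7 CPM at 12 weeks. Myh6 had 428.2 CPM in 12 weeks replicate 3 and 6.77 to 19.8 CPM in the other 12-week libraries. Kcnh2 was highest in 12 weeks replicate 1. The part of heart muscle in the Kcnh2 values was not tested.

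**Figure D3:**
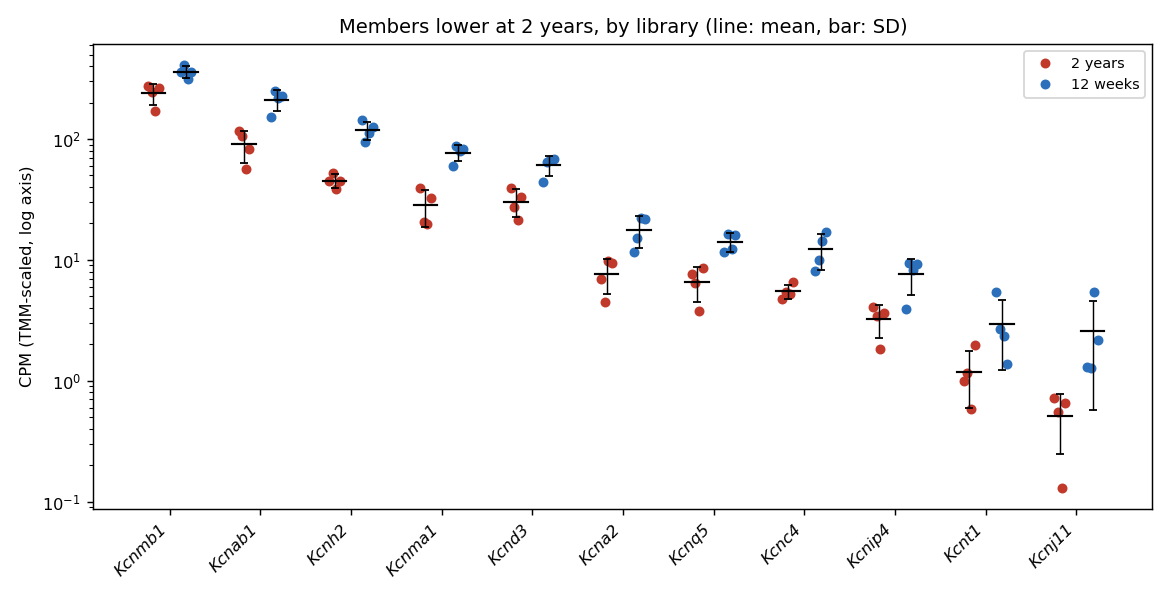
CPM by library on a log axis for 11 detected members called lower at 2 years, ordered by mean level, with 2-year libraries in red left of 12-week libraries in blue, the mean as a line and the SD as a bar (n = 4 each). Of those drawn, Kcnip4 and Kcnt1 overlap between the ages, and Kcnj11 has a single high library at 5.47 CPM.

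Smooth muscle markers moved in the same libraries as these voltage-gated and BK members. Of the 7 markers 4 fell (Myh11, Cnn1, Smtn and Myocd) and Acta2, Tagln and Des did not pass, with a median log2 fold change of -0.55, or -0.78 with the correction. Their summed level did not overlap between the ages, and no marker was at 0 in any library. Myh11, the smooth muscle myosin heavy chain, was at -1.72 and Acta2, smooth muscle actin, at -0.38 and not called (adjusted p by edgeR = 0.144). With the correction Myh11 was at -1.30 and Acta2 at -0.74, both called lower. Kcna1 and Kcna2 are also known from axons. Of 7 nerve and Schwann cell markers 1 was higher and 1 lower, none was at 0, and they had a summed level of 293.1 to 696.5 CPM at 2 years and 669.3 to 761.4 CPM at 12 weeks. The part of either cell type in the channel results was not tested.

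Inward rectifiers pass potassium near the resting potential, and some are controlled by metabolism. Of 15 members 6 were detected. Kcnj8, the pore of the vascular ATP-sensitive channel, had 46.9, 50.3, 65.7 and 43.1 CPM at 2 years, against 39.8, 40.4, 47.9 and 53.9 CPM at 12 weeks. The ages overlapped and it did not pass (log2 fold change 0.18, SE 0.16, adjusted p by edgeR = 0.371). Its partner in that channel, the sulfonylurea receptor Abcc9, averaged 455.3 ± 55.3 CPM at 2 years and 412.7 ± 65.1 CPM at 12 weeks (SD, n = 4 each; 0.14, adjusted p = 0.467), and under the length-GC correction it was called higher at 0.63. The ratio of Kcnj8 to Abcc9 was 0.0897, 0.114, 0.169 and 0.0921 in 2 years replicates 1 to 4, against 0.126, 0.0884, 0.112 and 0.121 in 12 weeks replicates 1 to 4. Its mean log2 difference of 0.02 did not pass (exact permutation p = 0.886, adjusted 0.886), and the difference was -0.61 with the correction. Both genes are also known from pericytes, of whose 5 markers 4 were tested and 2 fell, with a summed level of 973.2 to 1517 CPM at 2 years and 1321 to 1763 CPM at 12 weeks and Higd1b at 0 in at least 1 library. With the correction none of these markers was called lower and Notch3 was called higher, at 1.13. The part of these cells in the Kcnj8 and Abcc9 values was not tested.

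Kcnj11, the ATP-sensitive pore of heart, skeletal muscle and beta cells, fell. It had 0.713, 0.554, 0.130 and 0.660 CPM at 2 years, against 1.31, 1.27, 5.47 and 2.19 CPM at 12 weeks. 12 weeks replicate 3 stood over the other libraries of its age, and all 12-week values were above all 2-year values. Kcnj11 counted as detected through the 12-week libraries alone. Its lack of overlap and its place among the detected members that fell are therefore read as descriptions only. The log2 fold change was -2.24 (SE 0.57, adjusted p by edgeR = 0.00642), or -1.56 and still called without 12 weeks replicate 3. That library also held the most heart marker counts, whose part in this value was not tested, and without replicate 3 of both ages Kcnj11 was at -1.29 and called. Abcc8, its receptor partner in beta cells, had 3 counts in all at 2 years and 78 at 12 weeks, 67 of them in 12 weeks replicate 3, and was too low for the test.

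Kcnj10 and Kcnj12 rose. Kcnj10 is the inward rectifier of glial cells and had 3.94, 5.20, 4.62 and 4.90 CPM at 2 years, against 0.611, 0.847, 1.11 and 1.5 CPM at 12 weeks. The lowest 2-year library was above the highest 12-week library, and the rise was 4.56-fold (log2 fold change 2.19, SE 0.30, adjusted p by edgeR = 0.000142). Kcnj12, a strong inward rectifier of muscle, had 4.39, 5.93, 4.16 and 4.62 CPM at 2 years, against 2.32, 1.39, 2.63 and 1.83 CPM at 12 weeks (2.34-fold higher, log2 fold change 1.23, SE 0.26, adjusted p = 0.00213). Kcnj2, the related strong rectifier of endothelium and small arteries, had 3.68, 2.39, 3.97 and 2.99 CPM at 2 years, against 0.917, 2.54, 3.88 and 2.27 CPM at 12 weeks. Its groups overlapped (0.43, SE 0.38, adjusted p = 0.356). Kcnj15, another inward rectifier, averaged 38.6 ± 10.5 CPM at 2 years and 47.9 ± 5.65 CPM at 12 weeks (SD, n = 4 each; -0.31, adjusted p = 0.200).

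Background leak channels of the K2P group had 2 of 5 detected members higher, and the other 3 did not pass; this is 40.0% called, against 52.0% of all genes. Kcnk13, a leak channel known from microglia and macrophages, had 6.33, 7.25, 4.49 and 4.93 CPM at 2 years, against 1.22, 1.23, 1.55 and 1.38 CPM at 12 weeks. The ages were well apart, and the rise was 4.26-fold (log2 fold change 2.09, SE 0.24, adjusted p by edgeR = 4.55e-05). Kcnk1, a weak leak channel, had 2.08, 2.18, 2.21 and 1.91 CPM at 2 years, against 1.00, 0.693, 0.925 and 1.22 CPM at 12 weeks (2.18-fold higher, log2 fold change 1.12, SE 0.28, adjusted p = 0.00661). Kcnk1 with the correction was at 0.85 and called, and with the correction and a replicate block at 0.87 and not called.

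Kcnk3, an acid-sensitive leak channel of atrial and pulmonary arterial muscle and of brown fat, had 9.44, 7.85, 17.95 and 10.8 CPM at 2 years, against 11.1, 6.89, 26.8 and 12.7 CPM at 12 weeks. Replicate 3 was the highest library at each age, and the groups overlapped (log2 fold change -0.33, SE 0.40, adjusted p by edgeR = 0.515). Fat markers were also highest in replicate 3 of each age, at 339.0 CPM summed at 2 years and 322.3 CPM at 12 weeks. The other libraries held 109.0 to 230.8 CPM at 2 years and 53.0 to 110.3 CPM at 12 weeks. Heart muscle markers summed to 1171 CPM in 12 weeks replicate 3, without which Kcnk3 was at 0.16 and not called. At 2 years their sum was highest in replicate 1, at 175.9 CPM, against 164.1 CPM in replicate 3. The part of fat or heart muscle in the Kcnk3 values was not tested. Kcnk5, a leak channel that opens in alkaline medium, averaged 4.01 ± 1.71 CPM at 2 years and 2.56 ± 0.664 CPM at 12 weeks (0.63, adjusted p = 0.148), and was called higher, at 0.89, without 2 years replicate 1. Kcnk6, a leak channel found in vascular muscle, averaged 13.9 ± 2.16 CPM at 2 years and 14.3 ± 0.887 CPM at 12 weeks (-0.04, adjusted p = 0.835). Both SDs are over n = 4.

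**Figure D4:**
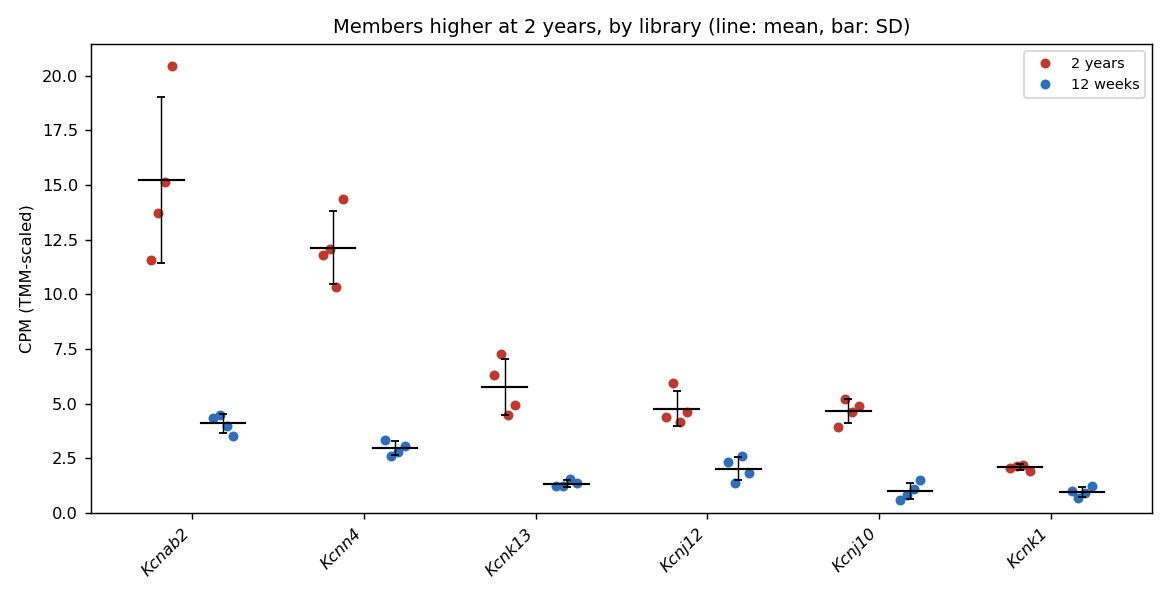
CPM by library on a linear axis for the 6 detected members called higher at 2 years, ordered by mean level, with 2-year libraries in red left of 12-week libraries in blue, the mean as a line and the SD as a bar (n = 4 each). No member overlaps between the ages, and Kcnab2 spreads from 11.6 to 20.5 CPM at 2 years.

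Leukocyte markers rose in the libraries in which Kcnn4, Kcnab2 and Kcnk13 rose. All 7 macrophage markers were higher at 2 years, with a summed level of 1394 to 1701 CPM at 2 years and 355.2 to 472.8 CPM at 12 weeks. All 6 T cell markers were higher, at 41.4 to 66.4 CPM at 2 years and 4.95 to 14.3 CPM at 12 weeks, as were all 5 B cell markers, at 21.3 to 90.9 CPM at 2 years and 1.87 to 3.14 CPM at 12 weeks. None of these markers was at 0 in any library. Of 7 endothelial markers 1 was lower (Tek) and the other 6 did not pass, with a summed level of 386.0 to 544.0 CPM at 2 years and 377.6 to 809.9 CPM at 12 weeks. The part of these cells in the channel results was not tested.

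Of the 53 members not detected, 9 reached 1 CPM in 1 to 3 libraries, 44 stayed under 1 CPM everywhere, and 7 of these had 0 counts in all 8 libraries (Kcna10, Kcne1, Kcnh5, Kcnj6, Kcnk16, Kcnk18 and Kcnv1). Undetected members of the voltage-gated branch include Kcna4, Kcna7, Kcnb2, Kcnc2, Kcnd2, Kcnip1 and Kcnip2, the 7 other EAG members Kcnh1 and Kcnh3 to Kcnh8, and the silent Kcng1, Kcng2, Kcng3, Kcns1, Kcns2 and Kcnv2. Kcnu1, Kcnj1, Kcnj4, Kcnj9, Kcnj13, Kcnj14 and Kcnj16, and the leak channels Kcnk2, Kcnk4, Kcnk7, Kcnk9, Kcnk10, Kcnk12 and Kcnk15, were likewise not detected. Low counts at this depth do not show that a gene is silent in every cell of the tissue.

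Kcna3 and Kcnc1 were tested and called although they were not detected. Both passed the expression filter through the 2-year libraries alone and could enter only by being higher there. Their calls and their lack of overlap are therefore read as descriptions only. They, like Kcnd2, Kcne3 and Kcng2, stand outside the rule for genes described with fold changes and were picked once their values had been seen. Kcna3, the Kv1 pore of T cells and macrophages, had 53, 27, 13 and 13 counts at 2 years, against 5, 1, 2 and 1 counts at 12 weeks. All 2-year levels, 0.451 to 1.51 CPM, were above the 12-week levels of 0.0385 to 0.218 CPM (log2 fold change 3.40, SE 0.61, adjusted p by edgeR = 0.000881), and without 12 weeks replicate 1 the value was 4.15. The 6 T cell and 7 macrophage markers rose in the same libraries, and their part was not tested. Kcnc1 had 19, 9, 11 and 19 counts at 2 years, against 5, 4, 1 and 2 counts at 12 weeks (2.20, SE 0.53, adjusted p = 0.00508), and 2.86 under the length-GC correction.

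Kcnj3 and Kcnj5, which together form the acetylcholine-activated channel of the atrium, were undetected by the rule but present in a single library, and they too were picked once values had been seen. Kcnj3 had 0.171, 0.0853, 0 and 0.0694 CPM at 2 years, against 17.6 CPM (477 counts) in 12 weeks replicate 3 and at most 0.243 CPM in the other 12-week libraries. Kcnj5 had 0.171, 0.213, 0 and 0.0694 CPM at 2 years, against 8.95 CPM (242 counts) in 12 weeks replicate 3 and at most 0.487 CPM in the others of that age. The 8 heart muscle markers summed to 88.6 to 175.9 CPM at 2 years, to 1171 CPM in 12 weeks replicate 3 and to 224.1 to 293.7 CPM in the other 12-week libraries. Outside 12 weeks replicate 3 most of each sum came from Ryr2 and Tnnt2. Ryr2 had 13.05 to 33.2 CPM at 2 years and 144.7 to 182.7 CPM at 12 weeks. Tnnt2 had 65.6 to 121.8 CPM at 2 years and 41.2 to 105.6 CPM at 12 weeks. The part of the heart muscle markers in the Kcnj3 and Kcnj5 values was not tested. Of 7 tested markers 4 were lower at 2 years, which is 57.1% called against 52.0% of all genes. Among these, Myh6 was not called without 12 weeks replicate 3. Nppa, an atrial hormone gene, was at 0 in 2 years replicates 1, 2 and 4 and in 12 weeks replicate 1, and at 250.6 CPM in 12 weeks replicate 3. Without replicate 3 of both ages, 8 members rose and 12 fell, against 8 and 13 with all libraries.

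**Figure D5:**
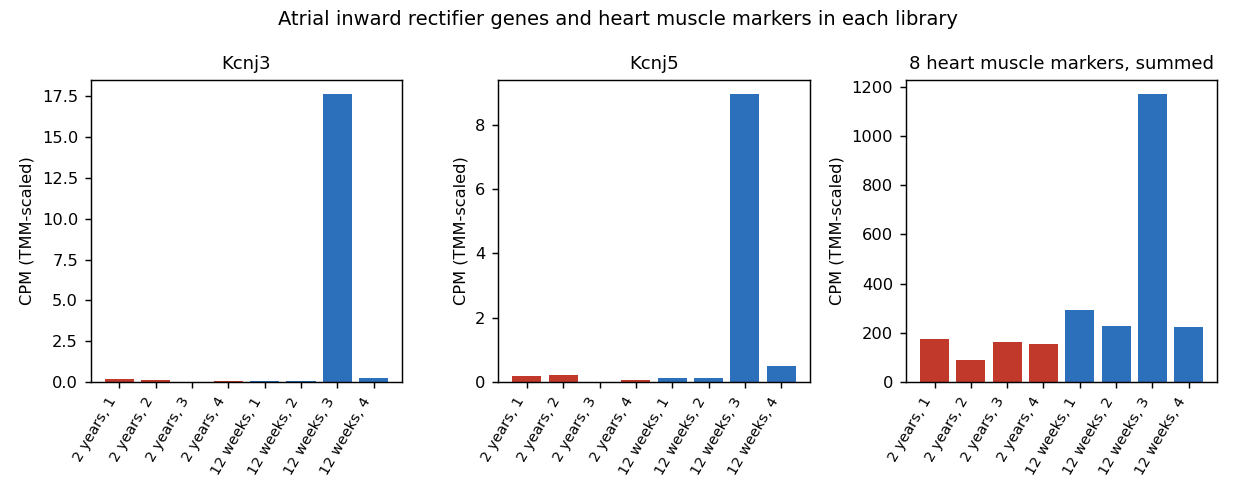
CPM by library of Kcnj3, Kcnj5 and the sum of 8 heart muscle markers, with 2-year libraries in red left of 12-week libraries in blue. 12 weeks replicate 3 holds 17.6 CPM of Kcnj3, 8.95 CPM of Kcnj5 and 1171 CPM of the markers, and the other 7 bars of each panel are low.

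Genes that work with these channels but do not match the symbol rule were counted whatever their result. Of 14 such genes 7 were tested, and 1 rose and 2 fell, which is 42.9% called against 52.0% of all genes. With the correction 3 rose and none fell. Amigo1, an adhesion protein that accompanies Kv2 pores, had 24.7, 17.7, 24.3 and 29.9 CPM at 2 years, against 36.6, 32.2, 32.8 and 31.6 CPM at 12 weeks (log2 fold change -0.46, SE 0.15, adjusted p by edgeR = 0.0258). Its groups did not overlap, and under the length-GC correction it was at -0.16 and not called. Of 18 alternatives 13 called Amigo1, and without 12 weeks replicate 3 it was at -0.47 and not called. Dpp10, an accessory protein of Kv4 pores, averaged 8.88 ± 2.23 CPM at 2 years and 13.7 ± 3.40 CPM at 12 weeks (SD, n = 4 each; -0.63, adjusted p = 0.0384), and was at 0.49 and not called with the correction. Dpp10 was called in 10 of 18 alternatives. Hcn2, a pacemaker channel related to the Kv branch, averaged 3.53 ± 0.653 CPM at 2 years and 2.05 ± 0.625 CPM at 12 weeks (SD, n = 4 each) and was called higher (0.79, adjusted p = 0.0302), but in 11 of 18 alternatives only. Without 12 weeks replicate 3 Hcn2 was at 0.70 and not called. Lrrc55, a gamma subunit of BK channels, averaged 2.17 ± 1.30 CPM at 2 years and 2.70 ± 0.581 CPM at 12 weeks (-0.34, adjusted p = 0.526). Hcn4 was tested and did not pass (-0.61, adjusted p = 0.403), while Abcc8, Dpp6, Hcn3, Kcnrg, Lrrc26, Lrrc38 and Lrrc52 were too low to be tested.

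Spread between animals was sizeable for many members. The coefficient of variation of CPM was above 20% in 26 of the 39 detected members at 2 years and in 20 at 12 weeks. The highest values were 51.4% at 2 years and 77.6% at 12 weeks for Kcnj11. Kcnd1 was steady at both ages, with 8.12% at 2 years and 10.2% at 12 weeks. Of the detected members 21 had the higher coefficient at 2 years.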

How the data were processed

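Gene counts of 8 bulk RNA sequencing libraries of mouse aorta were analysed. The values are raw counts as deposited by the authors, per the labels and the file headers; total RNA was prepared with RNeasy columns and read on an Illumina NovaSeq, per the labels' protocols, and the build is GRCm39, per the submitters' processing notes. How reads were aligned and counted, and whether strand was used, is not given in the sources used here, so 13 detected members that overlap a gene on the opposite strand in GENCODE M21 (among them Kcnma1, Kcnab1, Kcnd3, Kcnq1, Kcnq5, Kcnip4, Kcnj15, Kcnk1, Kcnk3, Kcna6, Kcnn1 and Kcnt2) have uncertain counts.

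Age was taken from the titles and replicates were numbered there; the series states 4 mice per age, and these numbers do not link the ages. Counts were filtered (filterByExpr), scaled by TMM (trimmed mean of M values) and tested across all genes with edgeR 4.0.16 (robust quasi-likelihood F test, age as the only term, Benjamini-Hochberg over 13978 genes) in R 4.3.3; the SE is the fold change over the square root of its F value. The procedure was run on simulated counts in which a small share of genes changed by known folds, with equal spread for all genes and no length trend. These data differ from that setting, with many changed genes and a length trend by age, so the simulation does not bear on those features. Ratios were tested by exact permutation. CPM, coefficients of variation and summed levels are descriptions. Transcript lengths and GC shares are those of the longest protein-coding transcript by symbol in GENCODE M21 (GRCm38), found for 98.7% of tested genes. Pairs of libraries within an age gave a chi-square per degree of freedom of 23.5 to 150.5, so none was a copy of another.

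The members, gene lists, markers and alternatives were chosen with earlier results of these data known. Some members and partners are counted but not reported here by name or value. The other detected members are named; values per library are given for the 8 with the highest mean CPM, for up to 10 called members per direction with the largest fold change and for 13 vascular and leukocyte members where detected. Alternatives were DESeq2 size factors, total counts as library size, other filters, DESeq2 1.42.0, limma 3.58.1 voom, a replicate block, a length and GC offset (natural splines with 4 degrees of freedom each), and libraries left out.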

Additional observations from a re-analysis of the deposited data

Results flagged for a closer look

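Among the 78 groups of 4 libraries formed by the 39 detected members at each age, 2 held a library whose gap to its nearest neighbour, as a share of the group's range, was past Dixon's critical value, which chance does in about 1 of 20 groups. Kcnd3 in 12 weeks replicate 1 was low at 44.1 CPM, against 64.9 to 68.0 CPM. Kcnk6 in 2 years replicate 2 was low at 10.7 CPM, against 14.6 to 15.3 CPM. Kcnj3 and Kcnj5 were added because they stood high in a single library, so that they are past the same value is a description and is not set against chance. Kcnj3 in 12 weeks replicate 3 stood at 17.6 CPM, against 0.0385 to 0.243 CPM in the other 12-week libraries. Kcnj5 in 12 weeks replicate 3 stood at 8.95 CPM, against 0.116 to 0.487 CPM in the others.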

How the results depend on the processing

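Under the 18 alternatives of the fit, 6 to 11 members were called higher and 12 to 14 lower, against 8 and 13. The 21 called members kept their direction in all 374 values, and 17 of them stayed called in every alternative that gave a value; Kcnt1, Kcna2, Kcnd3 and Kcnk1 did not. With 1 library left out, 8 to 10 members were called higher and 12 to 14 lower, and over all genes 3096 to 3620 were called higher and 3201 to 3801 lower. Under the other detection rules, 29 to 43 members counted as detected. The Kcnmb1 to Kcnma1 difference was 0.74 to 1.00 with 1 library left out (lowest without 2 years replicate 2, exact permutation p = 0.0571), 0.085 with the length-GC correction and 0.88 by pairs (exact sign-flip p = 0.125, the smallest possible). The Kcnj8 to Abcc9 difference was -0.17 to 0.13 with 1 library left out, negative without 12 weeks replicate 2 (-0.086) or 2 years replicate 3 (-0.17), and -0.61 with the correction.

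Among the 42 genes followed under these alternatives, 8 changed sign, none of which was called in the unaltered fit. Of these, Kcnq3 was called with its changed sign, at 0.60 under the length-GC correction (adjusted p by edgeR = 0.037). Kcnt2 was called higher, in its original direction, in 2 alternatives. With 1 library left out, Kcnt2 ran from -0.059 to 0.14, Kcnk3 from -0.62 to 0.16, Kcna5 from -0.35 to 0.091, Kcnk6 from -0.090 to 0.046, Kcnn1 from -0.16 to 0.10 and Kcnf1 from -0.25 to 0.27. Without both replicates 3, Kcna5 was at 0.30. With the correction, without and with the replicate block, Kcnk6 was at 0.051 and 0.044, Kcnn1 at 0.21 and 0.19, Kcnq3 at 0.60 and 0.58 and Kcnd1 at 0.25 and 0.24, and with both Kcnk3 was at 0.026. Kcnn1 was at 0.0050 with total counts, and Kcnf1 at -0.0024 with a filter on the mean and -0.022 with the replicate block. The cause of these changes was not tested.

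Replicate numbers did not pair the libraries: deviations from the group means correlated at -0.31, -0.12, 0.051 and 0.025 for numbers 1 to 4. With the replicate block 8 members were called higher and 12 lower, Kcnt1 no longer among them. Depth limits members under about 1 CPM, and the length trend cannot be told apart from age.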
